A study of Arabidopsis thaliana with 15 samples.

Results

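The genes described here are 8 Arabidopsis thaliana genes of leucine, isoleucine and valine breakdown and of the electron transfer flavoprotein (ETF) route into the respiratory chain. They are MCCB, ETFQO, ETFALPHA, D2HGDH, ALDH6B2, AT1G21400, AT4G20930 and AT4G31810. Each was found by its symbol or locus code on a probe set paired with exactly 1 gene, among the 16174 genes tested. Of a list of 33 breakdown and ETF genes 14 were measured, these 8 among them. Transcript levels came from 15 Affymetrix arrays of leaves of the accession Col-0, in 5 groups of 3 biological replicates. Plants grew in short days, and each replicate pooled 2 leaves of independent plants harvested at noon. The groups were leaves in light at day 0, leaves of whole darkened plants kept in dark boxes (DP) for 3 or 6 days, and individually darkened leaves (IDL) wrapped in foil-coated covers for 3 or 6 days while the rosette stayed in its light cycle. No transgene, mutant or added agent is named for any group. Light was sampled at day 0 only, so darkness and 3 or 6 more days of leaf age cannot be told apart in comparisons with light. Each leaf sample is bulk tissue, in which fewer cells of a type and less RNA per cell cannot be told apart.

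In plants the branched-chain amino acids are broken down in mitochondria. After an aminotransferase has made the keto acid, branched-chain keto acid dehydrogenase turns it into an acyl-CoA, and separate branches for leucine and for valine and isoleucine follow. Electrons taken from the acyl-CoA pass to ETF, a soluble flavoprotein, and from there through ETF:ubiquinone oxidoreductase to ubiquinone. Starved leaves are known to use this route as a source of electrons when carbohydrate runs short.

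Values are log2 of the deposited probe set intensity, given as group mean ± SD (n = 3 arrays), or the intensity itself where stated. Differences are on the log2 scale with the standard error of a limma fit over all 15 arrays and all 16174 genes, and a gene is called changed at a two-sided adjusted p under 0.05 (Benjamini-Hochberg over all genes of the comparison). The array medians lay between 18.31 and 19.56 intensity units. Of the leaf mesophyll markers 3 of 8 were measured (RCA, LHCB4.1 and LHCB4.2), and their summed intensity was 3478 to 4294 in light arrays and 978 to 1414 over all darkened arrays. The root hair gene EXPA7, the 1 measured root marker of 5, stood at 3.68 in light, near the lower quartile of the genes tested (3.44 in light). Of 5 guard cell markers 2 were measured, FMA and AT1G22690, with a summed intensity of 166 to 172 in light and 64.9 to 96.4 over the darkened arrays. All 3 mesophyll markers and AT1G22690 fell in all 4 darkened groups, while FMA did not fall in any and rose in IDL at day 6 by 0.40 (adjusted p = 0.0289). The part of these shifts in the results was not tested. None of the listed phloem, trichome and epidermis, or seed markers was measured.

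AT1G21400 of the entry step and MCCB of the leucine branch rose in all 4 darkened groups. AT1G21400, the E1 alpha subunit of branched-chain keto acid dehydrogenase, had intensities of 59.3, 83.6 and 66.8 in the 3 light replicates. It reached 454, 583 and 470.4 in DP at day 3 and 515, 396 and 478 in DP at day 6. In IDL the intensities were 373, 461 and 378 at day 3 and 306, 256 and 338 at day 6. Every darkened array of AT1G21400 lay above every light array, and the IDL arrays of day 6 were the lowest of the darkened ones. The rise over light was 2.85 ± 0.15 in DP at day 3, 2.73 ± 0.15 in DP at day 6, 2.54 ± 0.15 in IDL at day 3 and 2.11 ± 0.15 in IDL at day 6, or 7.22-fold, 6.65-fold, 5.81-fold and 4.31-fold (largest adjusted p = 1.24e-10).

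MCCB encodes the beta subunit of 3-methylcrotonyl-CoA carboxylase, the biotin-dependent step of the leucine branch. Its light intensities were 58.5, 58.6 and 63.8. In DP they were 532.5, 636 and 589 at day 3 and 504, 488 and 565 at day 6. The light arrays lay far below, and both DP days overlapped. In IDL MCCB stood at 478, 638 and 382 at day 3 and at 279.5, 279.5 and 289.6 at day 6. The day 3 replicates of IDL spread widely (8.93 ± 0.37 on the log2 scale) and overlapped those of DP, whereas the day 6 replicates were tight (8.14 ± 0.03) and lay below all other darkened arrays. MCCB was thus 9.70-fold above light in DP at day 3, 8.60-fold in DP at day 6, 8.11-fold in IDL at day 3 and 4.69-fold in IDL at day 6.

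**Figure D1:**
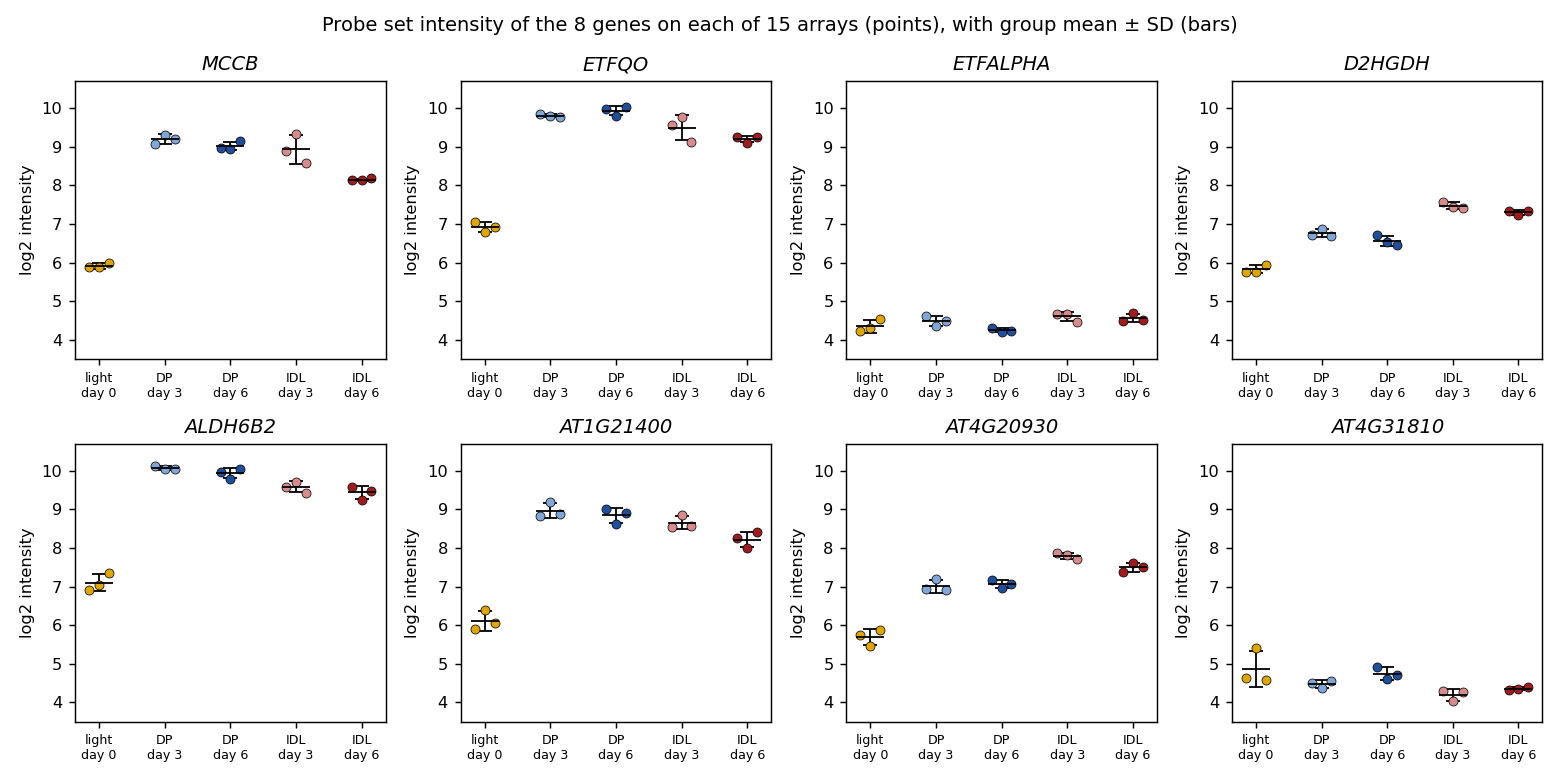
Each panel shows 1 gene, with the log2 probe set intensity of every array (points) and the group mean ± SD (bars) for light at day 0 and for DP and IDL at days 3 and 6. By group mean MCCB, ETFQO, ALDH6B2 and AT1G21400 are highest in DP, and D2HGDH and AT4G20930 are highest in IDL. For MCCB and AT1G21400 the arrays of IDL at day 3 overlap those of DP. The arrays of ETFALPHA, at intensities of 18.5 to 25.9, overlap between light and each darkened group.

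Of the valine branch ALDH6B2 and AT4G20930 rose in all 4 darkened groups and AT4G31810 in none. ALDH6B2, the methylmalonate semialdehyde dehydrogenase near the end of valine breakdown, stood at intensities of 121, 132 and 163 in light. The DP arrays gave 1112, 1059 and 1058 at day 3 and 1007, 887 and 1052 at day 6. The IDL arrays gave 771, 843 and 692 at day 3 and 769.6, 611 and 716 at day 6, below every DP array. The rise over light ranged from 2.34 ± 0.13 in IDL at day 6 to 2.97 ± 0.13 in DP at day 3 (largest adjusted p = 1.61e-12).

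AT4G20930, a 3-hydroxyisobutyrate dehydrogenase of the same branch, had light intensities of 53.2, 44.1 and 59.2. In DP it reached 122, 147 and 119.9 at day 3 and 145, 124 and 135 at day 6. In IDL it reached 234, 225 and 211 at day 3 and 167, 196 and 183 at day 6. Here the IDL arrays lay above every DP array, the opposite order from ALDH6B2. The gene rose 2.49-fold and 2.60-fold over light in DP at days 3 and 6, and 4.3-fold and 3.5-fold in IDL (largest adjusted p = 1.77e-08).

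AT4G31810, which is related to the 3-hydroxyisobutyryl-CoA hydrolases of valine breakdown, did not rise in any group. Its light intensities were 24.7, 42.4 and 23.8, so replicate 2 of light stood apart and the light SD of 0.47 was the largest of any group among the 8 genes. DP gave 22.6, 20.7 and 23.7 at day 3 and 30.5, 24.2 and 26.3 at day 6. IDL gave 19.8, 16.3 and 19.1 at day 3 and 20.1, 20.5 and 21.0 at day 6, below every light array, as were the DP arrays of day 3. Against light it fell by 0.67 ± 0.16 in IDL at day 3 (adjusted p = 0.00218) and by 0.51 ± 0.16 in IDL at day 6 (adjusted p = 0.0163). The size of both falls depended on light replicate 2, since omitting it left -0.40 at day 3 (adjusted p = 0.0199) and -0.24 at day 6 (adjusted p = 0.178). In DP the differences were -0.39 (95% confidence interval -0.73 to -0.05, adjusted p = 0.0719) at day 3 and -0.12 (-0.46 to 0.22, adjusted p = 0.616) at day 6. Omitting light replicate 2 moved these to -0.12 (adjusted p = 0.558) at day 3 and to 0.15 (adjusted p = 0.432) at day 6. For DP at day 3 the difference passed under 4 of 24 other settings, with -0.51 when light replicate 1 was omitted (adjusted p = 0.0298) and -0.54 when light replicate 3 was (adjusted p = 0.0199). Centring on reference genes gave -0.51 (adjusted p = 0.0234) and array weights gave -0.44 (adjusted p = 0.0408).

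Among the 3 measured genes of the ETF route the changes were uneven. ETFQO, the membrane enzyme that hands electrons from ETF to ubiquinone, had light intensities of 132, 111 and 120.0. DP arrays read 919.8, 882 and 875 at day 3 and 1001, 888 and 1039 at day 6. IDL arrays read 759, 867 and 559.8 at day 3 and 604, 547.5 and 607 at day 6, and every IDL array of either day lay below every DP array. ETFQO rose 7.39-fold and 8.07-fold over light in DP at days 3 and 6, and 5.94-fold and 4.85-fold in IDL.

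ETFALPHA, the alpha subunit of ETF, was not called against light in any darkened group. Its intensities ran from 18.6 to 23.3 in light, from 20.6 to 24.7 in DP at day 3, from 18.5 to 19.7 in DP at day 6, from 22.1 to 25.6 in IDL at day 3 and from 22.5 to 25.9 in IDL at day 6. Each darkened group overlapped light. The differences from light were 0.14 (-0.11 to 0.38, adjusted p = 0.414) and -0.10 (-0.35 to 0.14, adjusted p = 0.533) in DP at days 3 and 6. In IDL they were 0.25 (0.01 to 0.49, adjusted p = 0.0947) at day 3 and 0.21 (-0.03 to 0.45, adjusted p = 0.171) at day 6. ETFALPHA passed in IDL at day 3 once light replicate 3 was omitted (0.35, adjusted p = 0.0347) and with quantile-normalized values (0.30, adjusted p = 0.0492). The upper bounds of these 95% intervals reach 0.49 at most, far below the rises of ETFQO. The group means of ETFALPHA, 4.25 to 4.6, lay above the lower quartile given above. Its intensities were near the array medians of 18.31 to 19.56, and no detection call was used. Whether its probe set responds to the transcript was therefore not tested. The beta subunit, ETFBETA, lay only on a probe set paired with several genes and was not read here.

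D2HGDH, which oxidises D-2-hydroxyglutarate, a product that can arise in lysine breakdown, and passes the electrons to ETF, stood at 54.4, 54.0 and 61.5 in light. DP arrays were at 104, 117 and 103 at day 3 and at 104, 92.2 and 87.6 at day 6. IDL arrays were at 191, 172 and 171 at day 3 and at 161, 151 and 160.2 at day 6, above every DP array. The rise over light was 0.93 ± 0.11 and 0.74 ± 0.11 in DP (1.91-fold and 1.67-fold, adjusted p = 4.03e-07 and 8.20e-06) and 1.65 ± 0.11 and 1.47 ± 0.11 in IDL (3.14-fold and 2.78-fold).

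Counted together, 6 of the 8 genes rose and none fell in DP at day 3, where 35.2% of all genes tested were called in either direction. The count was 6 risen and 0 fallen in DP at day 6, with 39.9% of all genes called. IDL had 6 risen and 1 fallen at day 3 (39.6% of all genes called) and again 6 and 1 at day 6 (39.7% of all genes called). The same 6 genes rose in each of these comparisons, which share the 3 light arrays. The median of the 8 differences was 2.08 and 2.05 in DP at days 3 and 6 and 2.29 and 1.96 in IDL. Over all genes the medians of the same differences were 0.04, 0.05, 0.06 and 0.03. The 8 genes were chosen with earlier results of these data known, so these counts and medians describe them only. The other measured breakdown genes, given below, had medians of 0.07 to 0.26.

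**Figure D2:**
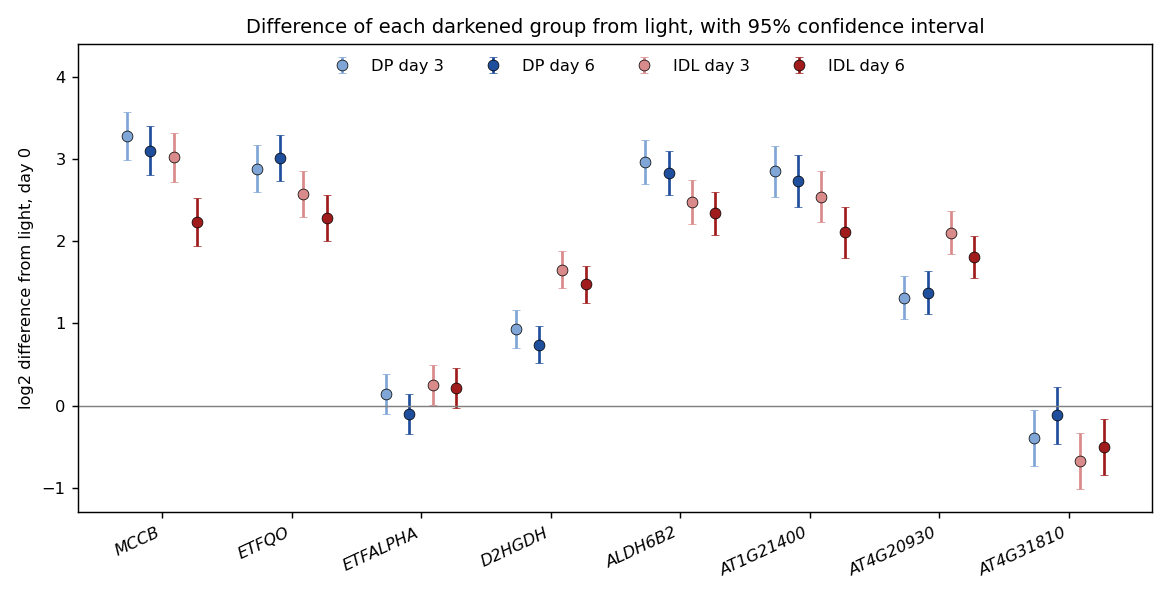
The log2 difference of each darkened group from light at day 0 is plotted for the 8 genes, with 95% confidence intervals from the limma fit (n = 3 arrays per group). The intervals of 6 genes lie above 0 in all 4 groups, those of ETFALPHA lie at or near 0, and AT4G31810 lies at or below 0, with -0.67 in IDL at day 3.

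Darkening of 1 leaf was next set against darkening of the whole plant on the same day. At day 3, where 16.7% of all genes were called, 2 of the 8 genes were higher in IDL and 1 was lower. AT4G20930 was higher in IDL by 0.79 ± 0.12 (1.73-fold, adjusted p = 7.05e-05) and D2HGDH by 0.72 ± 0.11 (1.65-fold, adjusted p = 4.60e-05). ALDH6B2 fell short of its DP level, at -0.49 ± 0.13 (adjusted p = 0.00904), which no longer passed when IDL replicate 3 was omitted (-0.42, adjusted p = 0.0539). MCCB stood at -0.26 (adjusted p = 0.265), ETFQO at -0.32 (adjusted p = 0.131) and AT1G21400 at -0.31 (adjusted p = 0.191). Omitting IDL replicate 2 of day 3, the highest array of its group for MCCB and ETFQO, moved both to -0.45 (adjusted p = 0.0199 for MCCB and 0.029 for ETFQO) and gave 5 called genes in place of 3.

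At day 6, with 29.1% of all genes called, 3 of the 8 were higher in IDL than in DP and 4 were lower. The genes lower in IDL were MCCB (-0.87 ± 0.14, adjusted p = 4.70e-05), ETFQO (-0.73 ± 0.13, adjusted p = 0.00019), AT1G21400 (-0.63 ± 0.15, adjusted p = 0.00254) and ALDH6B2 (-0.49 ± 0.13, adjusted p = 0.00497). They were 1.83-fold, 1.66-fold, 1.55-fold and 1.41-fold higher in DP. D2HGDH was higher in IDL by 0.73 ± 0.11 (1.66-fold, adjusted p = 1.69e-05) and AT4G20930 by 0.43 ± 0.12 (1.35-fold, adjusted p = 0.0111). For ETFALPHA the difference was 0.32 ± 0.12 (adjusted p = 0.0463), and this call was lost under 14 of 24 other settings, among them the replicate number as a block (adjusted p = 0.0594). AT4G20930 no longer passed at day 6 when DP replicate 2 was omitted (0.38, adjusted p = 0.0543), when IDL replicate 2 was omitted (0.38, adjusted p = 0.0587) or with quantile-normalized values (0.31, adjusted p = 0.0633). AT4G31810 stood at -0.39 (-0.73 to -0.05, adjusted p = 0.0855) and passed under 2 of 24 other settings, among them the omission of light replicate 2 (adjusted p = 0.015). Thus at day 6 genes of the route divided by treatment. AT1G21400, MCCB, ALDH6B2 and ETFQO were higher in whole darkened plants, and D2HGDH and AT4G20930 were higher in single darkened leaves. At day 3 each of these genes differed in the same direction, but only ALDH6B2, D2HGDH and AT4G20930 had passed. The test of whether the difference changed between the days passed in 0 of the 8 genes.

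Between day 3 and day 6 few of the 8 genes passed, and few of all genes did. In DP 0 of the 8 genes passed in limma, 0 had an unadjusted p under 0.05, and 4.56% of all genes were called. The differences of day 6 from day 3 in DP ran from -0.24 in ETFALPHA to 0.27 in AT4G31810. In IDL, where 8.64% of all genes were called, MCCB fell by 0.79 ± 0.14 (adjusted p = 0.000749) and was the 1 gene of 8 that passed. Counts of 0 and 1 among 8 genes lie near these shares of all genes. In IDL 4 of the 8 had an unadjusted limma p under 0.05, MCCB among them. AT1G21400 stood at -0.43 (adjusted p = 0.0828), AT4G20930 at -0.30 (adjusted p = 0.167) and ETFQO at -0.29 (adjusted p = 0.216). ETFQO passed without replicate 3 of IDL at day 3 (-0.47, adjusted p = 0.0243) and AT1G21400 passed after quantile normalization (-0.48, adjusted p = 0.0484). The interaction, which asks whether the change from day 3 to day 6 differs between IDL and DP, was called in 5.36% of all genes and in 0 of the 8 by limma, with 2 at an unadjusted p under 0.05. These were MCCB at -0.61 ± 0.20 (adjusted p = 0.0787) and ETFQO at -0.42 ± 0.19 (adjusted p = 0.23). Both passed without replicate 3 of IDL at day 3, with -0.79 (adjusted p = 0.0126) for MCCB and -0.60 (adjusted p = 0.0432) for ETFQO.

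**Figure D3:**
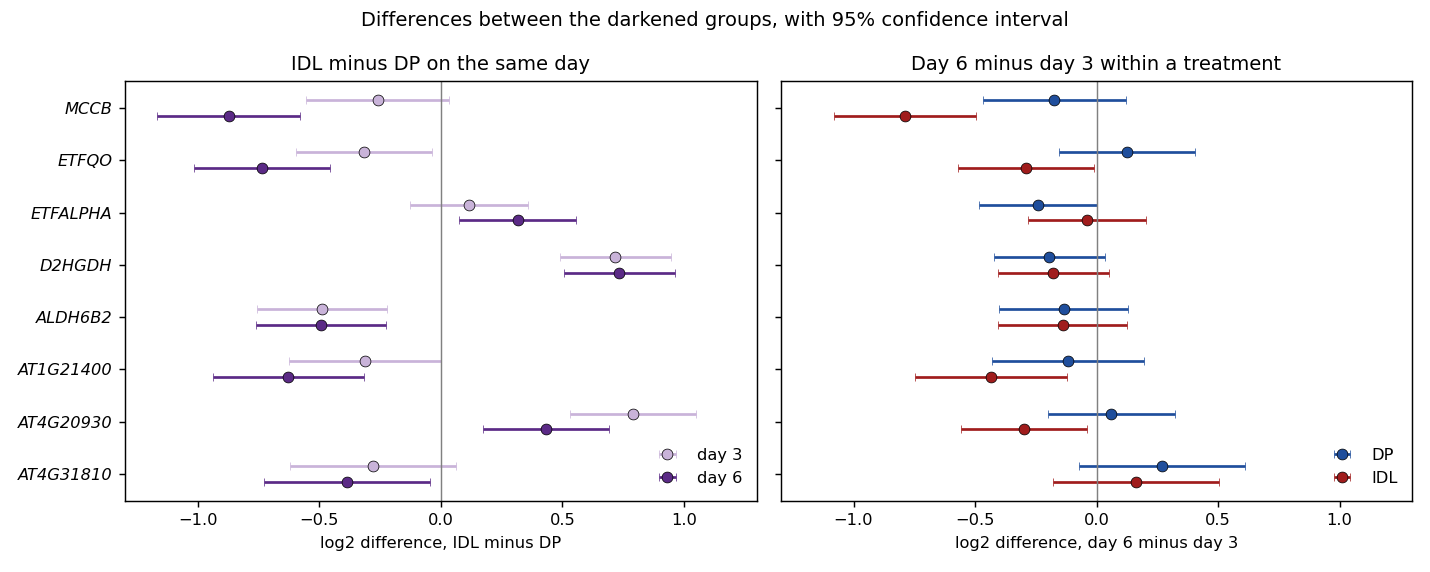
The left panel plots the log2 difference of IDL from DP at days 3 and 6, and the right panel the difference of day 6 from day 3 within DP and within IDL, with 95% confidence intervals (n = 3 arrays per group). On the left D2HGDH and AT4G20930 lie above 0 and MCCB, ETFQO, ALDH6B2 and AT1G21400 below it, with the day 3 interval of MCCB reaching past 0. On the right MCCB in IDL, at -0.79, is farthest from 0.

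The order of the groups followed from these levels. MCCB and AT1G21400 rose from light through IDL at day 6, IDL at day 3 and DP at day 6 to DP at day 3, with overlapping arrays at the last 2 steps of that order. ETFQO ran from light through IDL at days 6 and 3 to DP at days 3 and 6, with an overlap between both IDL days and between both DP days. In ALDH6B2 the order was light, IDL day 6, IDL day 3, DP day 6 and DP day 3, with an overlap between the IDL days. D2HGDH and AT4G20930 ran from light through both DP days, whose arrays overlapped, to IDL at day 6 and at day 3, with no overlap between the IDL days.

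Within groups the place of each array among its 3 was counted over the 8 genes. The SD of a gene within a group ran from 0.03 to 0.47, with a median of 0.13. In DP at day 6 replicate 2 was the lowest of its 3 arrays in 7 of the 8 genes, and in IDL at day 3 replicate 3 was the lowest in 6 and replicate 2 the highest in 5. The median deviation of the 8 genes from the group mean was -0.12 in that DP array and -0.11 in replicate 3 of IDL at day 3. Over all genes the median deviations of these arrays were 0.002 and -0.005. In DP at day 3 replicates 1, 2 and 3 were the lowest in 2, 2 and 4 of the 8 genes, and in IDL at day 6 in 4, 4 and 0. The share of all genes lowest in each array was not counted, so whether the 8 genes share spread was not tested.

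Likeness was measured as the root mean square distance, on the log2 scale, between the 4 differences from light of 2 genes, all of which share the light arrays. ETFQO, ALDH6B2 and AT1G21400 were closest to one another among 16173 other genes. ALDH6B2 was nearest to ETFQO at a distance of 0.113, and AT1G21400 came next at 0.165. From AT1G21400 the nearest genes were ALDH6B2 at 0.142 and ETFQO at 0.165. The places moved with the setting, from 1 to 3 for ALDH6B2 seen from ETFQO up to 1 to 15 for ETFQO seen from AT1G21400, over 23 settings. From MCCB the nearest were AT2G15880 (0.134), AT1G30720 (0.193) and AT5G19120 (0.220), with ETFQO in place 5, ALDH6B2 in place 7 and AT1G21400 in place 9. D2HGDH was nearest to AT2G37150 (0.065), AT5G18640 (0.115) and AT1G15740 (0.123), and AT4G20930 to AT2G38800 (0.053), AT3G19910 (0.138) and AT4G01870 (0.139). D2HGDH took place 112 seen from AT4G20930, where ETFQO took place 1670. Nearest to ETFALPHA were AT3G55310 (0.027), AT1G64300 (0.036) and AT3G60680 (0.036), and nearest to AT4G31810 were AT5G35160 (0.027), AT4G37920 (0.052) and AT4G36390 (0.075). Small distances are common near a difference of 0, so the distance alone does not rank these pairs against each other.

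Other genes of the pathway came from a list of 33 breakdown and ETF genes, of which 14 were measured, 8 of them described above. A further 4, among them MCCA, the partner subunit of MCCB, lay only on probe sets shared with another gene. Of the 6 remaining genes 2 rose and 1 fell in DP at day 3, 1 rose and 2 fell in DP at day 6, and 3 rose and 1 fell in IDL at each day. Over all genes 35.2% and 39.9% were called in DP at days 3 and 6, and 39.6% and 39.7% in IDL. The median difference of the 6 genes from light was 0.07 and 0.22 in DP at days 3 and 6 and 0.23 and 0.26 in IDL.

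AT3G60510, a relative of AT4G31810 in the hydrolase family, rose in all 4 groups, by 0.71 ± 0.15 and 0.89 ± 0.15 in DP and by 0.64 ± 0.15 and 0.50 ± 0.15 in IDL, the last of which missed the threshold when light replicate 2 was omitted (0.32, adjusted p = 0.0878). AT2G26800, the hydroxymethylglutaryl-CoA lyase that ends leucine breakdown, rose by 0.59 ± 0.12 in IDL at day 3 and by 0.39 ± 0.12 at day 6 (adjusted p = 0.000399 and 0.012), and stood at 0.22 (adjusted p = 0.186) and 0.28 (adjusted p = 0.0731) in DP. The day 6 rise of AT2G26800 in IDL missed the threshold when light replicate 2 (0.34, adjusted p = 0.0569) or IDL replicate 3 (0.31, adjusted p = 0.0808) was omitted. Quantile-normalized values put AT2G26800 past the threshold in DP as well, at 0.39 (adjusted p = 0.0159) and 0.47 (adjusted p = 0.00355). AT4G16800, of the enoyl-CoA hydratase family, fell in all 4 groups, by 0.50 to 0.74 (largest adjusted p = 0.00334). AT1G71170, related to 3-hydroxyisobutyrate dehydrogenases, rose in IDL by 0.71 ± 0.13 and 0.87 ± 0.13, and in DP at day 3 by 0.34 ± 0.13, a call lost under 10 of 24 other settings. Its relative AT1G71180 fell by 0.54 ± 0.16 to a dim 3.48 in DP at day 6, which missed the threshold when DP replicate 3 was omitted (-0.30, adjusted p = 0.0849). AT1G50110, an aminotransferase of the first step, was dim, at 3.56 in light, and did not pass in any group. Whether relatives of similar sequence share signal on these probe sets was not tested.

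Synthesis of the same amino acids had 3 measured genes of 15 listed. AT2G31810, the regulatory subunit of acetolactate synthase, rose with the breakdown genes, by 2.26 ± 0.14 and 2.28 ± 0.14 in DP at days 3 and 6 and by 1.97 ± 0.14 and 1.86 ± 0.14 in IDL (4.79-fold, 4.86-fold, 3.93-fold and 3.63-fold, largest adjusted p = 2.64e-10). The dihydroxyacid dehydratase AT3G23940 fell by 1.40 ± 0.18 and 0.85 ± 0.18 in DP and by 1.56 ± 0.18 and 1.61 ± 0.18 in IDL. The ketol-acid reductoisomerase AT3G58610 fell by 0.58 ± 0.13 in DP at day 3 and by 1.10 ± 0.13 and 1.12 ± 0.13 in IDL, and stood at -0.09 (adjusted p = 0.638) in DP at day 6. At day 6 the 3 synthesis genes were all lower in IDL than in DP, as were 2249 of all 16174 genes. The differences of IDL from DP were -0.42 ± 0.14 in AT2G31810 (adjusted p = 0.0246, lost under 5 of 24 other settings), -1.03 ± 0.13 in AT3G58610 and -0.76 ± 0.18 in AT3G23940.

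ETFQO is 1 of several enzymes that reduce ubiquinone, and 6 of 18 listed genes of other routes into and out of ubiquinone were measured. While ETFQO was lower in IDL, 4 of these 6 were higher in IDL than in DP at day 6 and none was lower, where 2450 of all 16174 genes were higher and 2249 lower. AT5G38710, a proline dehydrogenase, rose by 3.30 ± 0.15 and 3.61 ± 0.15 over light in IDL at days 3 and 6 (9.82-fold and 12.2-fold) and by 0.98 ± 0.15 in DP at day 3. In DP at day 6 it stood at 0.20 (adjusted p = 0.307). SDH1-1, the flavoprotein subunit of succinate dehydrogenase, fell by 0.97 ± 0.17 and 1.22 ± 0.17 in DP, and stood at -0.04 (adjusted p = 0.882) and 0.35 (adjusted p = 0.113) in IDL. NDB2, an external NADH dehydrogenase, fell by 0.56 ± 0.16 and 0.55 ± 0.16 in DP and rose by 0.76 ± 0.16 in IDL at day 6. The falls of NDB2 missed the threshold when light replicate 3 was omitted (-0.38 and -0.37, adjusted p = 0.0878 and 0.0828), when DP replicate 3 was omitted at day 3 (-0.43, adjusted p = 0.0706) and when DP replicate 1 was omitted at day 6 (-0.46, adjusted p = 0.054). NDB4, of the same family, rose by 1.33 ± 0.11 in IDL at day 6 from a light level of 3.44, at the lower quartile of the genes tested. SDH1-2, also dim at 3.55 in light, and SDH2-2, at 5.71 in light, did not pass in any comparison of these groups.

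**Figure D4:**
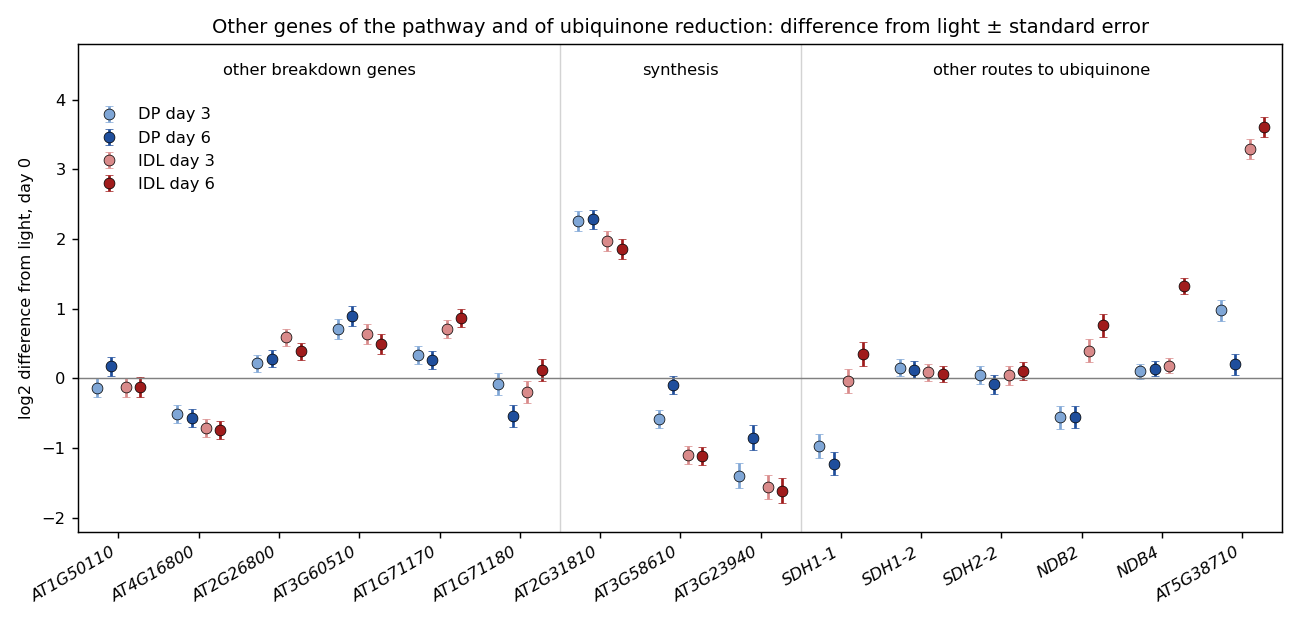
The log2 difference from light ± standard error is shown for the measured genes that accompany the 8 described above, in 3 blocks: other breakdown genes, branched-chain amino acid synthesis, and other routes to ubiquinone (n = 3 arrays per group). AT2G31810 lies between 1.86 and 2.28 in all 4 groups, and AT5G38710 reaches 3.61 in IDL at day 6 against 0.20 in DP.

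Breakdown of other amino acids gave a comparison with similar genes. Of 17 listed genes 5 were measured, and 4 of these rose and 1 fell in each darkened group. Between 35.2% and 39.9% of all genes were called in these comparisons with light. The median difference of the 5 genes from light was 3.06 and 2.97 in DP at days 3 and 6 and 3.32 and 3.01 in IDL. These medians were above those of the 8 genes. AT4G33150 rose most, by 5.78 in DP at day 3 and by 6.06 in IDL at day 6. DELTA-OAT, the ornithine aminotransferase, was higher in IDL than in DP by 1.09 at day 3 and 1.24 at day 6. MGL, the methionine gamma-lyase, was lower in IDL, with differences of -0.66 and -1.22. Both orders seen among the 8 genes were thus present among these 5 as well.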

How the data were processed

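The authors deposited 1 linear intensity per probe set and array, made with the R package oligo per the submitters' processing notes. The sources used here do not state its version, background correction, normalization, summary method or genome build. No coordinates, detection calls or sequences were used. Log2 was taken without further normalization. Of 26676 probe sets 16179 had exactly 1 gene, 588 several and 9909 none in the platform annotation. The brightest probe set stood for a gene, giving 16174 genes, and no dim gene was left out. Locus codes came from the RefSeq gene table of TAIR10.1, which matched 16067 of the 16179.

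All 15 arrays were fitted with limma 3.58.1 (lmFit and eBayes, run under R 4.3.3), each group having its own mean, with a prior of 10.52 degrees of freedom and Benjamini-Hochberg adjustment within each of 9 comparisons. Precision is limited by having 3 arrays in a group. The steps were tested on simulated data. Replicate numbers were not treated as a shared plant or batch in the main fit. Same-numbered arrays of different groups had deviations that correlated at -0.078 to 0.094, none of 30 pairs over 0.1. Pairs of other numbers correlated at -0.103 to 0.092, and 7 of 15 arrays correlated best with an array of their own number. Correlations this weak cannot settle whether a batch was shared.

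The 8 genes and the 16 gene lists (136 entries, 44 measured, with none of 6 dark-induced genes measured) were chosen with earlier results of these data known. All 8 genes are named. For each, the 3 nearest genes by distance are named, and from other lists up to 4 genes, with all measured pathway, synthesis and ubiquinone genes added after their values were seen. Alternatives were quantile normalization, centring on the median or on 10 reference genes, leaving out dim genes (lowest quartile), all probe sets in the fit, array weights, a robust prior that follows intensity, a block for the replicate number, a fit of only those arrays that are compared, and leaving out each array in turn.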

Additional observations from a re-analysis of the deposited data

Results flagged for a closer look

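No gene among the 8 passed the test of the interaction, which asks whether the change from day 3 to day 6 differs between IDL and DP. It was called in 5.36% of all genes, and 0 of 8 lies near that share. The test therefore does not show that such a difference was absent. MCCB at -0.61 ± 0.20 and ETFQO at -0.42 ± 0.19 had an unadjusted limma p under 0.05. Both passed without replicate 3 of IDL at day 3. The interaction passed in 3 of the other genes named above, as the difference of the IDL change from the DP change. NDB4 stood at 1.11 ± 0.16 (adjusted p = 0.000129), the proline dehydrogenase AT5G38710 at 1.09 ± 0.21 (adjusted p = 0.0021) and AT1G71180 at 0.78 ± 0.22 (adjusted p = 0.0425). The call of AT1G71180 was lost under 11 of 24 other settings. This gene was dim, at 3.48 ± 0.41 in DP at day 6, where the lower quartile of the genes tested was 3.51. Adjusted p values are from limma.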

How the results depend on the processing

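Across 9 comparisons and 24 settings the log2 differences of the 8 genes kept their call in 1695 cases, lost it in 19 and gained it in 14, and no called difference changed sign. Of the losses 14 concerned ETFALPHA in IDL against DP at day 6. The number of the 8 genes called in IDL at day 6 against day 3 was 1, and 2 after quantile normalization. With each array left out in turn it ran from 1 to 2, in IDL against DP at day 3 from 2 to 5, and in the interaction from 0 to 2. The cause was not tested. With the replicate number as a block 6 genes were called in DP and 7 in IDL against light, and ETFALPHA in IDL against DP at day 6 (adjusted p = 0.0594) was the 1 call of the 8 genes lost. Over all genes 738 were called in DP at day 6 against day 3, but 441 without replicate 1 of DP at day 3 and 420 without replicate 2 of DP at day 6. In IDL at day 6 against day 3 the 1398 called became 918 without replicate 2 of IDL at day 3. Centring on the reference genes kept the 6 rises in each darkened group. It moved the median of all genes in DP at day 3 from 0.04 to -0.08 and the split of calls from 2785 higher and 2909 lower to 1904 and 3592. In IDL at day 3 the split went from 3365 higher of 6400 called to 2447 higher and 3480 lower, in DP at day 6 against day 3 from 328 higher of 738 to 497 and 256, and in IDL at day 6 against day 3 from 779 higher of 1398 to 1071 and 287. Signal over background was not used, which limits what dim genes such as AT1G50110, and genes near the array medians such as ETFALPHA, show.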
